A study of Mus musculus with 27 samples.

Results

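The genes described here are the nuclear-encoded subunits of the mitochondrial respiratory chain and of ATP synthase, followed through irradiation of the mouse intestine. They are all genes outside the mitochondrial chromosome with a protein_coding transcript type and a symbol of the following form. The symbol begins with Nduf, a subunit letter and a digit, with Uqcr, Cox4 to Cox8 or Atp5, or is Sdha, Sdhb, Sdhc or Sdhd. Of 55401 genes in the table, 87 met this rule, 36 of complex I, 4 of complex II, 8 of complex III, 21 of complex IV and 18 of complex V. The tested genes, with at least 1 FPKM in at least 3 libraries, numbered 11118, and 80 of the 87 members were among them. FPKM are fragments per kilobase of gene per 1 M mapped fragments.

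RNA of the intestine was sequenced from male wildtype C57BL/6 mice aged 6 to 8 weeks, in 9 groups of 3 libraries. Irradiated mice received 60Co gamma rays at 72 R/min and were sampled 6 h, 24 h or 3 d after 15 Gy, or 6 h or 24 h after 6 Gy. CBLB502 is an engineered form of bacterial flagellin, an agonist of the receptor TLR5 that is tested as protection against radiation. It was given at 0.2 mg/kg with 15 Gy, with 6 Gy or without radiation, always with sampling at 24 h. The control group is labelled as untreated in the sample labels, while the design text of the series speaks of PBS as the control for CBLB502 and places the agent 0.5 h before 15 Gy. No transgene or deletion is named for any group. That text names 7 groups of 10 mice, without the 2 groups sampled 24 h after 6 Gy, whereas the labels give 9 groups of 3 libraries, and the labels were followed. The descriptions of treated samples speak of a mouse, but nothing states whether the 3 libraries of a group are separate mice, so the p-values rest on the spread among libraries, which may be technical.

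Complexes I to IV of the inner mitochondrial membrane pass electrons from NADH and succinate to oxygen, complexes I, III and IV pump protons as they do so, and complex V, ATP synthase, uses the proton gradient to make ATP. Most of their subunits are encoded in the nucleus and imported, while a small set of core proteins of complexes I, III, IV and V comes from the mitochondrial genome, so that these are assembled from products of both genomes, and complex II from nuclear products alone. In the intestine the absorptive enterocytes depend on oxidative metabolism for nutrient uptake, and crypt stem cells and their daughters shift in mitochondrial activity as they differentiate. Several complex IV subunits, and 1 partner of complex IV named Ndufa4 after complex I, exist as a broadly expressed form and as a form known from heart, skeletal muscle, lung or testis.

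Total counts ran from 57.4 to 87.1 M per library. Levels are given below as scaled FPKM, the deposited FPKM divided by the library's TMM factor, a scaling factor of edgeR that ran from 0.713 to 1.43. The 6 libraries taken 24 h after 6 Gy, 3 of them with CBLB502, differed from the rest, with TMM factors of 1.23 to 1.43. In the groups given 6 Gy and sampled at 24 h, 16 exocrine pancreas genes summed to 167 to 1573 scaled FPKM with CBLB502 and 63.5 to 5445 without it, against 10.7 to 11.7 in control. Enterocyte markers, with all 12 tested, summed to at least 25437 scaled FPKM in every library. Fibroblast markers were low in control, with 2 of 8 tested in the table as a whole and a sum of 0.0626 to 0.441 scaled FPKM there.

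In the untreated intestine the subunits were abundant but unequal. The sum over all members was 7332 ± 895 scaled FPKM in control (mean ± SD, n = 3), of which complex IV gave 2809.5 ± 379.8, complex V 1685 ± 101, complex I 1468 ± 208, complex III 885 ± 134 and complex II 484 ± 78.1. The median tested member of complex I stood at 32.2 scaled FPKM, below the 70.8 of complex V, 94.9 of complex II, 103 of complex III and 124 of complex IV. The most abundant member of each complex in control was Ndufa1, Sdhd, Uqcrh, Cox6a1 and Atp5b, in the order of complexes I to V. Sdhd, a membrane anchor of succinate dehydrogenase, and Cox6a1, the broadly expressed form of subunit 6A of cytochrome c oxidase, led complexes II and IV in all 9 groups.

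In scaled FPKM the members summed to their highest group mean 6 h after 15 Gy and to their lowest 3 d after it. The sum of scaled FPKM in control was 7332 ± 895, and after 15 Gy it was 9853 ± 718 at 6 h, 6611 ± 339.8 at 24 h and 4629 ± 96.2 at 3 d (mean ± SD, n = 3 each). The 3 libraries taken 3 d after 15 Gy ran from 4559 to 4738, below all 3 control libraries, which ran from 6655 to 8347. Those taken 6 h after 15 Gy, at 9324 to 10670.2, lay above all of them. The score of the members, the mean over the 80 tested genes of log2 counts per 1 M less that gene's mean over the 27 libraries, was 0.55, 0.41 and 0.33 at 6 h and -0.54, -0.55 and -0.59 at 3 d after 15 Gy, against 0.00, -0.06 and 0.29 in control. Of the 80 tested members, 53 had their highest group mean of scaled FPKM at 6 h after 15 Gy and 68 their lowest at 3 d. The low point does not depend on this scaling and the high point does. As a share of all counts the 87 members took 1.46 ± 0.13% 6 h after 15 Gy and 0.84 ± 0.0763% at 3 d, 1.47 ± 0.0928% 24 h after 6 Gy with CBLB502, and 1.08 ± 0.106% in control (mean ± SD, n = 3 each). Of the counts outside mitochondrially encoded genes they took 0.932 ± 0.0802% 3 d after 15 Gy, the lowest group mean, and 1.57 ± 0.171% at 6 h, against 1.26 ± 0.173% in control. By that measure 6 h after 6 Gy (1.58 ± 0.21%), 24 h after 6 Gy (1.58 ± 0.145%) and 24 h after 6 Gy with CBLB502 (1.66 ± 0.0717%) were level with or above 6 h after 15 Gy, within the spread of the libraries.

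**Figure D1:**
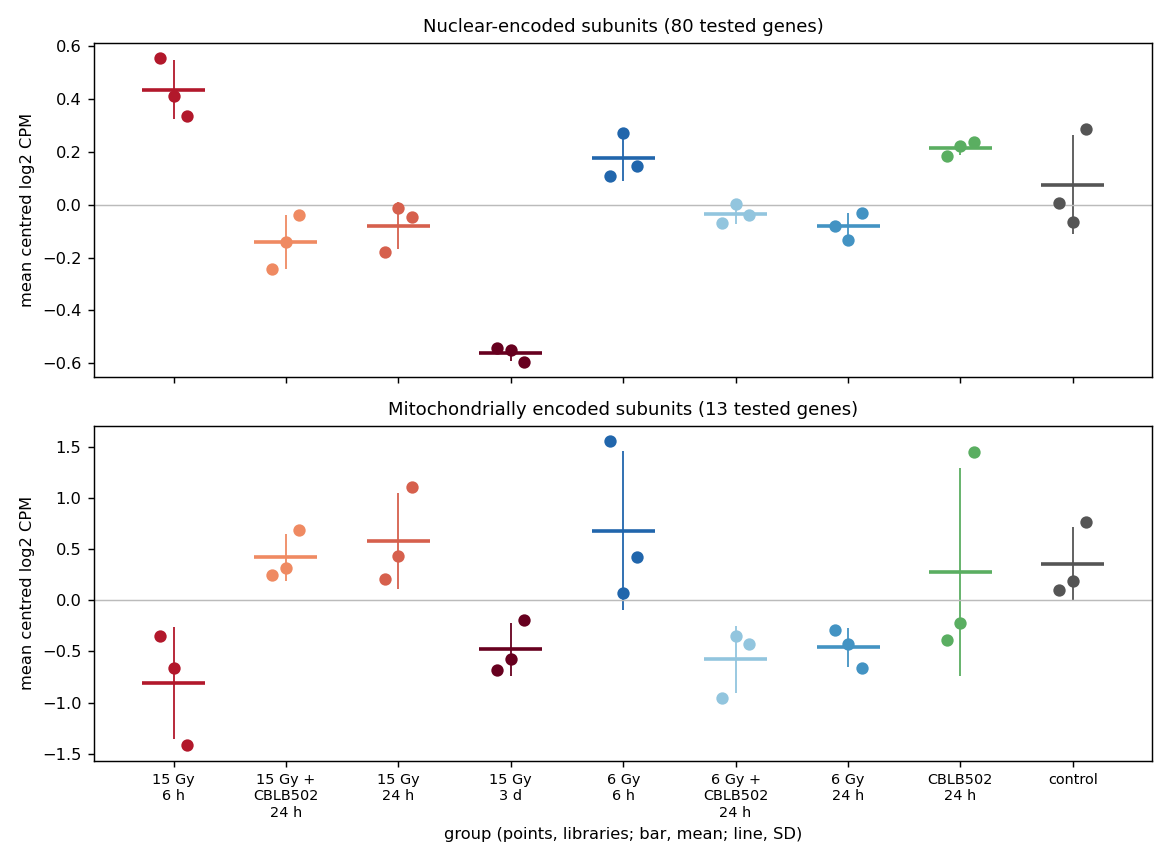
Score of the 80 tested members (upper panel) and of the 13 mitochondrially encoded subunits (lower panel) in each library (y axes, mean log2 difference from each gene's mean over the 27 libraries), by group, with points for libraries, bars for means and lines for SD. In the upper panel the 3 libraries taken 6 h after 15 Gy are at the top and the 3 taken 3 d after it at the bottom, and control replicate 3 stands above the other control libraries at 0.29.

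At 6 h after 15 Gy, 44 of 80 tested members rose and 1 fell against control by edgeR's quasi-likelihood F test (Benjamini-Hochberg adjusted p under 0.05 over all tested genes). Of all tested genes 29% were called, 12.2% higher and 16.8% lower. The median log2 fold change of the members was 0.42, with quartiles of 0.21 and 0.51, against 0.02 over all tested genes. All 3 irradiated libraries lay above all 3 control libraries for 37 members, 46.2% of them, a pattern found in 18.6% of all tested genes. The number of members called in either direction came to 26 with scaling to library totals alone, all of them higher. It was 26 with limma on log2(FPKM + 1), 9 when the 2 groups were fitted alone, and 29 and 23 without control replicate 1 or 2. Values in brackets below are log2 fold changes ± SE with edgeR's adjusted p, for n = 3 libraries per group. In bulk RNA, a change in the share of cells of a type and a change in RNA per cell cannot be told apart.

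The rise included members of every complex. In complex I, 22 of 36 rose, with a median of 0.47, among them 3 of 7 core subunits. Ndufb11, an accessory subunit of the membrane arm, had 107, 84.3 and 86.5 scaled FPKM after 15 Gy, against 50.9, 46.3 and 60.8 in control. Every irradiated library was above every control library, and the log2 fold change was 0.82 ± 0.12 (SE), with an edgeR adjusted p of 2.88e-05. Ndufa7, an accessory subunit of the arm that takes up NADH, had 42.5, 33.9 and 38.8 scaled FPKM after 15 Gy, against 22.6, 21.6 and 23.4 in control, again with no overlap (0.77 ± 0.10, adjusted p = 9.72e-06). Ndufa13, an accessory subunit also known as GRIM-19, rose by 0.79 ± 0.12 on the log2 scale (adjusted p = 4.23e-05). Ndufa12 rose by 0.84 ± 0.27 (adjusted p = 0.0207), but a row named Ndufa12-ps in the same table averaged 91.2 FPKM over all libraries, above Ndufa12 itself, and reads of the pair may be split between them.

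A single member fell at 6 h after 15 Gy. Ndufs4, an accessory subunit of complex I that joins late in assembly and whose loss in people causes Leigh syndrome, had 19.0, 17.4 and 14.4 scaled FPKM after 15 Gy, against 21.7, 20.7 and 26.95 in control. The groups did not overlap (-0.44 ± 0.13, adjusted p = 0.0118). Its level was also low, at 18.0, 15.8 and 15.5 scaled FPKM, 3 d after 15 Gy (-0.48 ± 0.13, adjusted p = 0.00652). In scaled FPKM Ndufs4 was lowest 24 h after 6 Gy, with 13.1, 13.7 and 11.9 with CBLB502 and 13.3, 10.9 and 12.8 without. Those libraries had TMM factors of 1.23 to 1.43, and this ranking depends on that scaling.

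In complex II the iron-sulfur subunit Sdhb and the membrane anchor Sdhc rose 6 h after 15 Gy. Sdhb had 119.5, 114 and 131 scaled FPKM, against 95.0, 95.0 and 91.1 in control (0.38 ± 0.11, adjusted p = 0.0141). Sdhc had 88.2, 78.8 and 89.9 scaled FPKM, against 53.0, 52.4 and 69.2 (0.56 ± 0.11, adjusted p = 0.000908). Neither gene's groups overlapped. The catalytic flavoprotein Sdha, at 0.14 ± 0.14 (adjusted p = 0.46), and the anchor Sdhd, at 0.06 ± 0.15 (adjusted p = 0.805), did not pass the test.

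In complex III, 4 of 8 members rose. Uqcr11, a small subunit, had 133, 103 and 88.5 scaled FPKM 6 h after 15 Gy, against 64.7, 57.7 and 69.4 in control (0.76 ± 0.17, adjusted p = 0.00182). Uqcrc1, one of the large core proteins, had 115, 102 and 125 scaled FPKM, against 76.2, 69.2 and 77.7 (0.62 ± 0.16, adjusted p = 0.0056). Both genes had every irradiated library above every control library. The hinge protein Uqcrh also rose (0.36 ± 0.13, adjusted p = 0.044), and the iron-sulfur protein Uqcrfs1 did not pass the test (0.16 ± 0.15, adjusted p = 0.427).

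In complex IV, 6 of 15 tested members rose, and Cox6a1 rose most of all 80. Cox6a1 had 1360.4, 1205 and 1244 scaled FPKM 6 h after 15 Gy, against 747, 638 and 723 in control, with no overlap (0.86 ± 0.12, adjusted p = 1.45e-05). The broadly expressed subunits Cox8a (0.60 ± 0.15, adjusted p = 0.0048), Cox6b1 (0.54 ± 0.10, adjusted p = 0.000524) and Cox7a2 (0.33 ± 0.12, adjusted p = 0.0432) rose with it, while Cox4i1 had 0.49 ± 0.22 (adjusted p = 0.0969). In complex V, 10 of 17 tested members rose, including 4 of the 5 subunits of the catalytic F1 head. Its catalytic subunit Atp5b had 348, 357 and 393 scaled FPKM, against 287, 272 and 258 in control (0.43 ± 0.12, adjusted p = 0.00973), and the 3 irradiated libraries stood above the 3 control libraries.

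The upstream sequences of members that stood out are shown because factors named NRF1, GABP (an ETS-family factor) and YY1 are known as regulators of respiratory chain genes. Each is the 250 bases before the RefSeq start of the gene on GRCm38.p6, printed 5′ to 3′ on the gene's strand, and capitals mark the letters found by the search. Cox6a1 was the largest rise at 6 h after 15 Gy, Uqcr11 and Ndufa11 were among the largest changes over time after 15 Gy, and Cox7a1 was the largest fall at 3 d.

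Cox6a1 (chr5:115348959-115349208, minus strand): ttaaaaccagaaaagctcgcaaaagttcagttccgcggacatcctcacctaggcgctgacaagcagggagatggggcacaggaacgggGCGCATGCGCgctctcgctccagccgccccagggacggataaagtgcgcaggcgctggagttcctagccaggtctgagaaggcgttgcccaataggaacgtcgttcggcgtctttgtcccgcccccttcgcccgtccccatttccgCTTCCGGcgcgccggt

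Uqcr11 (chr10:80406822-80407071, minus strand): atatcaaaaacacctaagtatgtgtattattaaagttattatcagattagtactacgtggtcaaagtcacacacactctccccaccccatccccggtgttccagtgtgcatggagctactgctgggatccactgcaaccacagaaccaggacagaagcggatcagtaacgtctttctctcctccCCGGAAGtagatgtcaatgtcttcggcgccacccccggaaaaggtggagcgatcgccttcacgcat

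Ndufa11 (chr17:56717512-56717761, plus strand): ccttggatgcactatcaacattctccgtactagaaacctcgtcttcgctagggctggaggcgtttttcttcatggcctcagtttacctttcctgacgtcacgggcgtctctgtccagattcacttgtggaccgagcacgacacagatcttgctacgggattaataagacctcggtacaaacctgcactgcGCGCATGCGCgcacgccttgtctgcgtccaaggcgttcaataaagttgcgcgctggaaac

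Cox7a1 (chr7:30183921-30184170, plus strand): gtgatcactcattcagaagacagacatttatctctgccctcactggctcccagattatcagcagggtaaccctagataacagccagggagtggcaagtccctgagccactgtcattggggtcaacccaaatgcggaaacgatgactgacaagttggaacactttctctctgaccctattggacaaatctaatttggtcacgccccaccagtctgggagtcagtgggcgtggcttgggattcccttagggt

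The search covered both strands for GCATGCGC (NRF1), CCGGAAG (the ETS core of GABP) and AAGATGGC (YY1), in a window of 300 bases that adds 50 bases after the start. Matches of GCATGCGC on the 2 strands overlap each other in the upstream sequences of Cox6a1 and Ndufa11. Of the 87 members 68 matched a RefSeq promoter by symbol. GCATGCGC occurred in 10 of these 68 (14.7%), against 3.05% of 27025 genes with a promoter and 6.04% of the 7699 tested ones. A gene counted once, with a match at any of its starts. The 10 members were Atp5g2, Atp5k, Atp5l, Cox6a1, Ndufa11, Ndufa6, Ndufa8, Sdhb, Uqcr11 and Uqcrc1, and in Uqcr11 the match lies outside the stretch printed. CCGGAAG occurred in 25% of the 68 members, against 21.6% of tested genes and 9.93% of all, and AAGATGGC in 14.7%, against 5.75% and 3.19%. At least 1 of the motifs stood in 31 of the 68 members (45.6%), against 30.2% of tested genes and 14.9% of all. None stood in the promoter of Cox7a1. A match is a description of letters and neither a binding site nor a cause.

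Of the 68 members, 66 were tested, and changes with and without these letters can be set side by side. At 6 h after 15 Gy the median log2 fold change was 0.45 in 31 members with at least 1 motif and 0.38 in 35 without. At 3 d both medians were −0.65. Of the 10 members with GCATGCGC, 9 rose at 6 h with a median of 0.47, against 29 of 56 and a median of 0.38 in members without it. At 3 d 7 of the 10 fell with a median of −0.62, against 51 of 56 and −0.65 without it. For AAGATGGC 5 of 10 rose and 1 fell at 6 h with a median of 0.40, against 33 of 56 risen and a median of 0.42 without it, and at 3 d 9 of 10 fell (median −0.63), against 49 of 56 (median −0.65). For CCGGAAG 12 of 17 rose at 6 h with a median of 0.44, against 26 of 49 and 0.42 without it, and at 3 d 16 of 17 fell (median −0.73), against 42 of 49 (median −0.65). The motifs thus did not share one direction at 6 h, and no test was made of these differences.

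Enterocyte markers differed in the same libraries. Of 12 such genes 4 rose and 2 fell 6 h after 15 Gy, and their sum was 81678 to 94887 scaled FPKM, against 64403 to 79063 in control, with no overlap. None of them was without counts in either group, and their part in the rise of the members was not tested.

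None of the 13 mitochondrially encoded subunits of the same complexes was called higher 6 h after 15 Gy. The deposited FPKM of the 87 nuclear members, summed and divided by the sum over the 13 mitochondrially encoded subunits, is a ratio within a library that needs no scaling between libraries. It was 10.7, 11.8 and 18.0% in the 3 libraries taken 6 h after 15 Gy, against 5.43, 4.73 and 4.18% in control. The irradiated libraries were all above the control libraries and above every other library of the series, whose highest value was 10.2% after 6 Gy with CBLB502. The ratio also rises when its denominator falls. Mitochondrially encoded genes took 6.82 ± 2.22% of all counts 6 h after 15 Gy and 14 ± 3.33% in control (mean ± SD, n = 3 each). The higher ratio is thus no measure of the nuclear rise alone. Among the mitochondrial genes, mt-Nd4l, a membrane subunit of complex I, averaged 1365 ± 665 scaled FPKM 6 h after 15 Gy and 4623 ± 1074 in control (-1.76 ± 0.47, adjusted p = 0.00769). By contrast mt-Co3, a core subunit of complex IV, averaged 14526 ± 3509.8 and 14828 ± 2499 scaled FPKM (-0.03 ± 0.38, adjusted p = 0.973).

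The lower dose gave few calls at the same time. At 6 h after 6 Gy, 5 members rose and 2 fell against control, where 28.4% of all tested genes were called, 13.1% higher and 15.3% lower. The median log2 fold change was 0.10, against 0.05 over all genes, and scaling to library totals gave 7 higher and 1 lower. Uqcrc1 led the rises, with 97.0, 146 and 149.6 scaled FPKM after 6 Gy, against 76.2, 69.2 and 77.7 in control. All 3 irradiated libraries were higher, replicate 1 by the least (0.83 ± 0.16, adjusted p = 0.000453). Atp5e (0.41 ± 0.14, adjusted p = 0.0324), the epsilon subunit of the F1 head, the core subunit Ndufs3 (0.38 ± 0.11, adjusted p = 0.0157), Ndufb1-ps (0.41 ± 0.15, adjusted p = 0.046) and Ndufa7 (0.33 ± 0.10, adjusted p = 0.0176) also rose. The count of 7 called members came to 2 when the 2 groups were fitted alone, 3 with no filter on low values, 4 without control replicate 1, 3 without control replicate 2, 18 without control replicate 3 and 4 without replicate 2 of 6 Gy.

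The 2 falls at 6 h after 6 Gy were in complexes IV and I. Cox6b2, the form of subunit 6B known from testis, had 6.03, 1.95 and 1.76 scaled FPKM after 6 Gy, against 18.5, 16.8 and 16.6 in control. The irradiated libraries were all far below the control libraries (-2.40 ± 0.57, adjusted p = 0.00314). Its share of the 6B pair, Cox6b2 over Cox6b2 plus Cox6b1, was 1.38, 0.379 and 0.365% after 6 Gy, against 4.21, 3.69 and 3.14% in control. Ndufb3, an accessory subunit of the membrane arm of complex I, had 55.2, 65.5 and 57.6 scaled FPKM, against 69.6, 77.5 and 104 in control, with no overlap (-0.49 ± 0.15, adjusted p = 0.0191). Enterocyte markers moved in the same libraries, with 11 of 12 lower 6 h after 6 Gy and a sum of 31104 to 38091 scaled FPKM against 64403 to 79063 in control, and their part in these results was not tested.

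Set directly against each other at 6 h, 15 Gy gave higher levels than 6 Gy for 34 members and lower levels for 2. Of all tested genes 43.2% were called in this comparison, 20.2% higher and 23% lower, and the member median was 0.27 against −0.03 over all genes. The calls were 9 higher and 2 lower with library totals and 12 and 1 with limma. Without replicate 1 of 15 Gy 22 were called, and without replicate 1 or 3 of 6 Gy 23 were called in either case. Complex I had 16 higher and 1 lower of 36, complex II 2 of 4 higher, complex III 2 higher and 1 lower of 8, complex IV 6 of 15 higher and complex V 8 of 17 higher. Cox6a1 had 1360.4, 1205 and 1244 scaled FPKM after 15 Gy, against 682, 730.4 and 674 after 6 Gy (0.86 ± 0.12, adjusted p = 5.27e-06). Ndufb11 (0.75 ± 0.12, adjusted p = 2.84e-05) and Ndufa11 (0.71 ± 0.21, adjusted p = 0.00982), a membrane-arm subunit of complex I, were higher by similar amounts. Cox6b2 had 8.48, 15.9 and 12.2 scaled FPKM after 15 Gy, against 6.03, 1.95 and 1.76 after 6 Gy (1.90 ± 0.56, adjusted p = 0.00932), and this call was lost without replicate 3 of 6 Gy (adjusted p = 0.0516). The 2 lower members were Ndufs4 (-0.46 ± 0.13, adjusted p = 0.00581) and Uqcrb, a small subunit of complex III (-0.34 ± 0.12, adjusted p = 0.0318). Enterocyte markers were higher after 15 Gy than after 6 Gy for 11 of 12 genes, with sums of 81678 to 94887 and 31104 to 38091 scaled FPKM, and their part in the difference was not tested.

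By 24 h after 15 Gy the members were close to control. A single member, Cox5b, which is the zinc-binding subunit 5B of complex IV, fell against control, where 4.94% of all tested genes were called, 2.63% higher and 2.31% lower. It had 77.8, 95.9 and 93.8 scaled FPKM at 24 h, against 121, 108 and 142 in control, with no overlap (-0.48 ± 0.13, adjusted p = 0.0372). No member was called under 5 alternatives, among them limma and library totals, or when any library other than control replicate 2 was left out. Without control replicate 2 there were 2, and DESeq2 called 5. The median log2 fold change was -0.19, 12 members were above 0 and 68 below, and 20 had all 3 libraries below control (25% of members, 11.1% of all tested genes). At an unadjusted p under 0.05 there were 12 members, 15% of them, against 21.6% of all tested genes.

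The passage between the 15 Gy times was marked in both intervals. At 24 h, 57 members were lower than at 6 h and 0 were higher, where 32.2% of all tested genes were called, 18.7% higher and 13.5% lower. These were 25 of complex I, 2 of complex II, 7 of complex III, 10 of complex IV and 13 of complex V. Ndufc2, a membrane-arm subunit of complex I, had 33.1, 43.4 and 41.4 scaled FPKM at 24 h, against 95.5, 76.5 and 83.0 at 6 h (-1.13 ± 0.19, adjusted p = 9.17e-05). Ndufa11 had 15.5, 22.9 and 22.0 scaled FPKM at 24 h, against 39.9, 50.1 and 40.6 at 6 h (-1.13 ± 0.21, adjusted p = 0.000376). Both genes fell by more than the spread within either group, as did Cox6a1 (-0.98 ± 0.12, adjusted p = 3.06e-06) and Sdhc (-0.87 ± 0.11, adjusted p = 7.76e-06). In the same interval 9 of 13 mitochondrially encoded subunits rose, with a median of 1.35, and the nuclear to mitochondrial ratio at 24 h was 4.56, 4.16 and 2.63%.

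Between 24 h and 3 d after 15 Gy, a further 56 member calls were falls and 0 were rises, where 25.3% of all tested genes were called, 11.2% higher and 14.1% lower. The falls were 28 in complex I, 2 in complex II, 5 in complex III, 10 in complex IV and 11 in complex V. All 3 libraries at 3 d lay below all 3 at 24 h for 67 members (83.8%), against 21% of all tested genes. The count came to 15 with library totals, 17 with limma and 23 with the 2 groups fitted alone, and every one of these calls was a fall. Uqcr11 had 32.4, 34.8 and 38.0 scaled FPKM at 3 d, against 62.2, 76.8 and 81.3 at 24 h (-1.05 ± 0.17, adjusted p = 0.000104). Ndufb3 (-0.91 ± 0.15, adjusted p = 0.00015) and Ndufb11 (-0.88 ± 0.12, adjusted p = 1.4e-05) also fell, and Ndufc2, already low at 24 h, had 0.01 ± 0.18 (adjusted p = 0.977).

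At 3 d after 15 Gy, 72 of 80 tested members were lower than in control and 0 were higher. Of all tested genes 29.4% were called, 13.9% higher and 15.6% lower. The member median was -0.65, with quartiles of −0.77 and −0.52, against 0.02 over all tested genes. All 3 libraries at 3 d lay below all 3 control libraries for 75 members (93.8%), a pattern of 20.7% of all tested genes. Scaling to library totals called 22 members, limma 24 and the 2 groups fitted alone 44, and each of these was among the 72 and lower. Library totals moved the median of all genes to 0.28, so the member median of −0.39 under that scaling lies below a shifted centre, and with limma the 2 medians were −0.37 and 0.18. Of the 25 members with protein_coding as their only transcript type 19 were tested, and 18 of these fell.

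**Figure D2:**
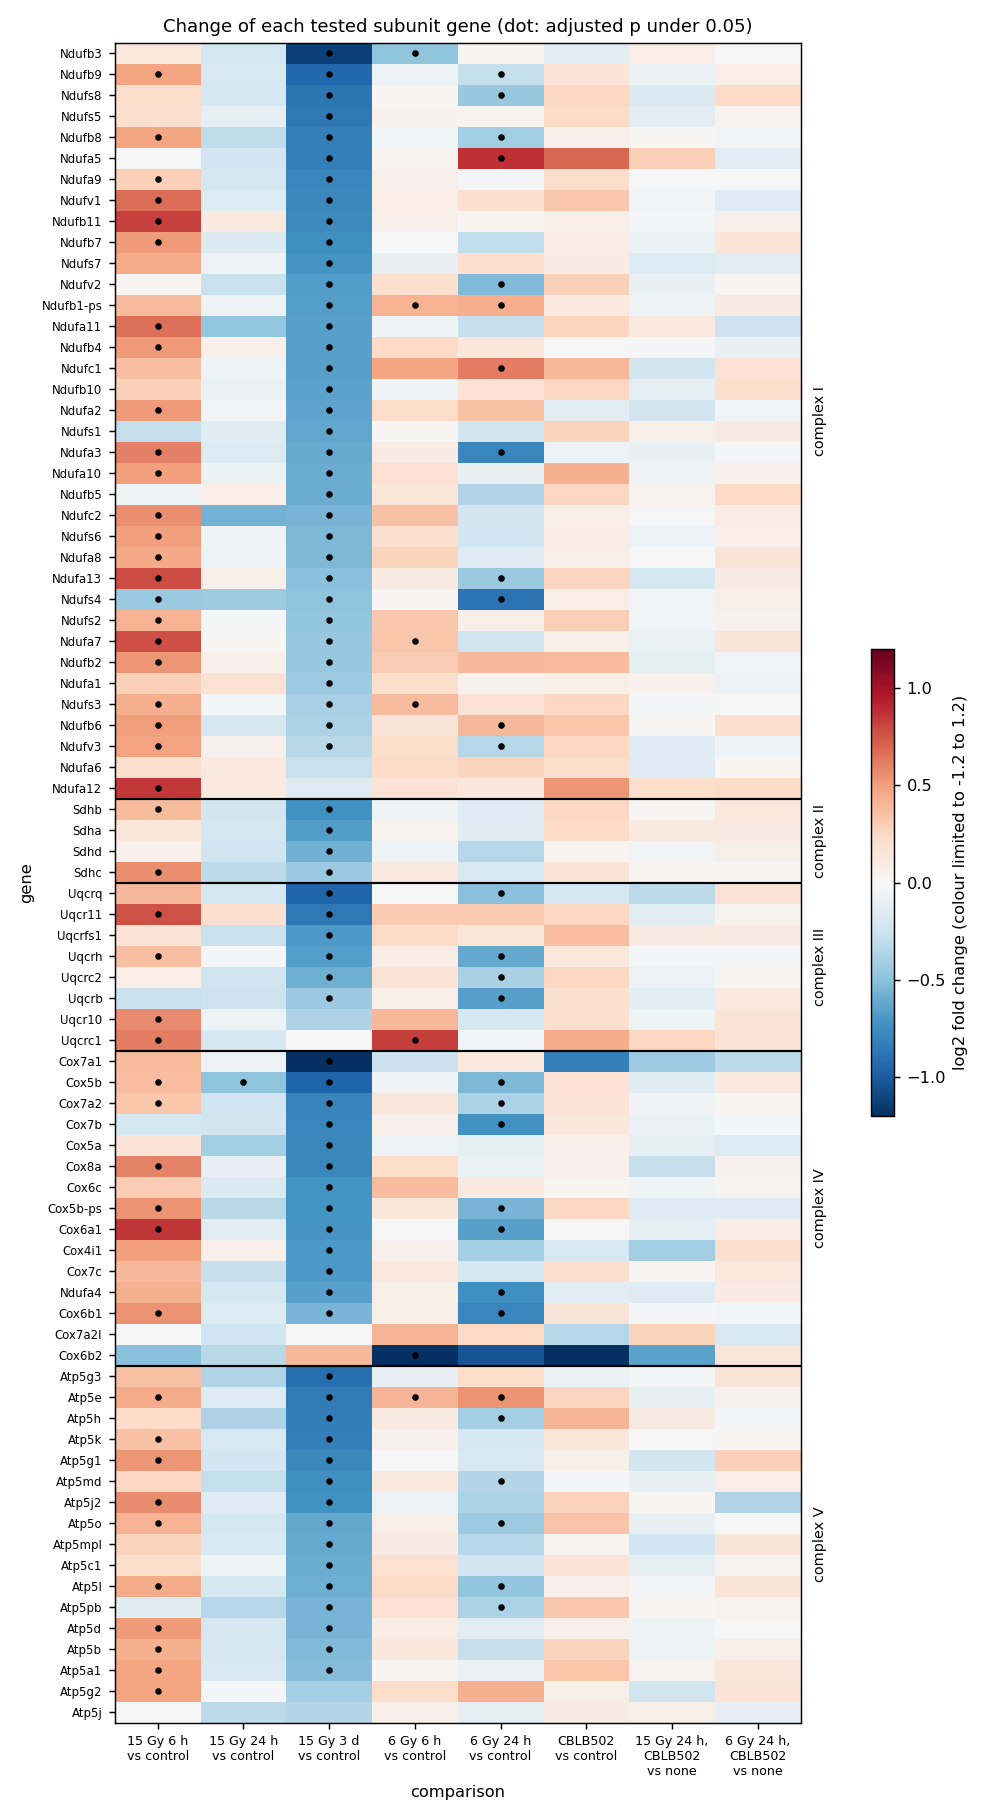
Log2 fold change of each tested member (rows, grouped by complex) in 8 comparisons of 2 groups (columns), with colour limited at 1.2 in either direction and a dot where edgeR's adjusted p was under 0.05. The column for 3 d after 15 Gy is blue with dots for 72 of 80 members, and that for 6 h after 15 Gy holds 44 dots on rises.

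The fall at 3 d ran through all 5 complexes. In complex I, 34 of 36 members fell, including all 7 core subunits, with a median of -0.63. Ndufb9, a membrane-arm accessory subunit, had 71.2, 62.4 and 64.5 scaled FPKM at 3 d, against 127, 122 and 135 in control (-0.95 ± 0.10, adjusted p = 4.48e-07). Ndufb3 had 38.4, 37.7 and 39.2 scaled FPKM, against 69.6, 77.5 and 104 (-1.12 ± 0.15, adjusted p = 1.38e-05). The irradiated libraries lay close together and well below control for both. Ndufa1, the most abundant complex I member in control, had 96.2, 94.5 and 100.1 scaled FPKM, against 124, 124 and 148 in control (-0.44 ± 0.14, adjusted p = 0.0194).

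All 4 subunits of complex II fell at 3 d. Sdha had 61.5, 62.5 and 55.9 scaled FPKM, against 96.5, 88.1 and 104 in control (-0.67 ± 0.14, adjusted p = 0.000807). Sdhb had 60.9, 57.7 and 50.1, against 95.0, 95.0 and 91.1 (-0.73 ± 0.11, adjusted p = 4.8e-05). The anchors Sdhc (-0.44 ± 0.11, adjusted p = 0.00585) and Sdhd (-0.58 ± 0.15, adjusted p = 0.0062) fell with them, so that the flavoprotein and iron-sulfur subunits and both anchors had the same direction.

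In complex III, 6 of 8 members fell. Uqcrq, a small subunit, had 39.6, 38.9 and 44.0 scaled FPKM, against 73.8, 65.8 and 100.3 in control (-0.96 ± 0.15, adjusted p = 8.57e-05). The iron-sulfur protein Uqcrfs1 had 78.2, 77.0 and 67.1, against 111, 104 and 146 (-0.69 ± 0.15, adjusted p = 0.00133). Uqcr10 did not pass the test (-0.37 ± 0.15, adjusted p = 0.0732), and neither did the core protein Uqcrc1, with 78.2, 83.8 and 58.9 scaled FPKM at 3 d, against 76.2, 69.2 and 77.7 in control. The Uqcrc1 groups overlapped (-0.01 ± 0.16, adjusted p = 0.987).

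In complex IV, 13 of 15 tested members fell at 3 d and the summed level was 1683 ± 136 scaled FPKM, against 2809.5 ± 379.8 in control (mean ± SD, n = 3 each). Cox5b had 71.9, 61.2 and 56.7 scaled FPKM, against 121, 108 and 142 (-0.96 ± 0.13, adjusted p = 1.59e-05). Cox6a1 had 476, 365 and 441, against 747, 638 and 723 (-0.71 ± 0.12, adjusted p = 0.000116). In complex V, 15 of 17 tested members fell, all 5 of the F1 head among them, and the sum was 1080.2 ± 38.0 against 1685 ± 101 in control. Atp5b had 199, 197 and 168 scaled FPKM, against 287, 272 and 258 (-0.53 ± 0.12, adjusted p = 0.00223), and Atp5e fell further (-0.84 ± 0.14, adjusted p = 0.000118).

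The 8 tested members that were not called at 3 d were Uqcrc1, Uqcr10, Cox7a2l, Cox6b2, Ndufa12, Ndufa6, Atp5g2 and Atp5j. Atp5j, coupling factor 6 of the stalk, overlaps Gabpa on the other strand and had -0.36 ± 0.17 (adjusted p = 0.125). Atp5g2, which encodes the same mature c ring protein as other Atp5g genes, had -0.41 ± 0.18 (adjusted p = 0.0875) and Ndufa6 -0.27 ± 0.11 (adjusted p = 0.0822). Cox7a2l, known from supercomplex assembly, had 0.00 ± 0.30 (adjusted p = 0.997), with one of the widest SEs among members.

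Enterocyte markers moved with the members at 3 d, with 7 of 12 lower, a median of -0.69 and a sum of 45277 to 63759.7 scaled FPKM, against 64403 to 79063 in control. Of 6 Paneth cell genes 5 were higher. None of the enterocyte genes was without counts in either group, and their part in the fall of the members was not tested. The nuclear to mitochondrial ratio at 3 d, 5.90, 5.46 and 4.32%, overlapped that of control, 5.43, 4.73 and 4.18%. All 13 mitochondrially encoded subunits had log2 fold changes below 0 at 3 d with a median of -0.74, and 0 were called by edgeR, with 4 at an unadjusted p under 0.05.

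The tissue-restricted forms of complex IV were mostly near or at the limit of detection. Cox4i2, a lung form, had 48 counts in 27 libraries together, Cox6a2, the heart and muscle form of subunit 6A, 229, Cox8c 58, Ndufa4l2 62, Cox7b2 8 and Cox8b 8, and none passed the filter. The highest FPKM of Cox6a2 in any library was 0.660, while Cox6a1 was the most abundant complex IV member in all groups. The second row named Atp5o had 0 counts.

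Cox7a1, known as the heart and skeletal muscle form of subunit 7A, was an exception, being expressed at levels like its broadly expressed partner Cox7a2 in control and showing the largest fall of all members at 3 d. Cox7a1 had 14.5, 10.6 and 23.4 scaled FPKM 3 d after 15 Gy, against 100.5, 106 and 140.3 in control, and all irradiated libraries were far below (-2.83 ± 0.26, adjusted p = 9.99e-08). Against 24 h, when it had 127, 95.3 and 111, the fall was as large (-2.76 ± 0.26, adjusted p = 1.45e-07). Cox7a2 fell by less at 3 d, with 78.0, 69.4 and 79.2 scaled FPKM, against 125, 119.9 and 149.8 in control (-0.79 ± 0.12, adjusted p = 5.25e-05). The share of Cox7a1 in the sum of both, which does not depend on scaling between libraries, was 15.7, 13.2 and 22.8% at 3 d, against 44.6, 46.8 and 48.4% in control. It was 48.3, 45.5 and 48.9% at 6 h and 54.7, 45.3 and 48.6% at 24 h after 15 Gy, so that of the 15 Gy times the low share was seen at 3 d.

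Markers of muscle were low in these libraries, and 1 gene of the fat list was not. Of 10 skeletal and heart muscle genes 1 passed the filter, and their sum was 0.962 to 5.48 scaled FPKM at 3 d, against 3.63 to 5.27 in control. Mb, Myh1, Myh4 and Tnnt3 had 0 counts in both groups. Of 9 smooth muscle genes 6 were tested, 1 fell at 3 d, and the sum was 8.28 to 10.7 against 9.69 to 14.3 in control. Of 6 adipocyte genes 1 was tested, Cidec, a protein of lipid droplets, and it fell at 3 d, averaging 73.9 ± 8.67 scaled FPKM, against 129 ± 23.8 in control (-0.80 ± 0.26, adjusted p = 0.0253). The adipocyte sum was 67.5 to 83.8 at 3 d, against 102 to 144 in control, and Adipoq, Plin1 and Ucp1 had 0 counts in both groups. The part of other cell types in the Cox7a1 change was not tested.

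Cox6b2 went a different way from Cox7a1. At 3 d it had 18.7, 12.4 and 36.5 scaled FPKM, against 18.5, 16.8 and 16.6 in control, with overlapping groups (0.39 ± 0.54, adjusted p = 0.635). Its partner Cox6b1 fell (-0.56 ± 0.10, adjusted p = 0.000346). The other broadly expressed forms fell as well, namely Cox4i1 (-0.69 ± 0.22, adjusted p = 0.0219), Cox7b (-0.78 ± 0.15, adjusted p = 0.000654), Cox8a (-0.77 ± 0.15, adjusted p = 0.000589) and Ndufa4 (-0.65 ± 0.22, adjusted p = 0.031).

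**Figure D3:**
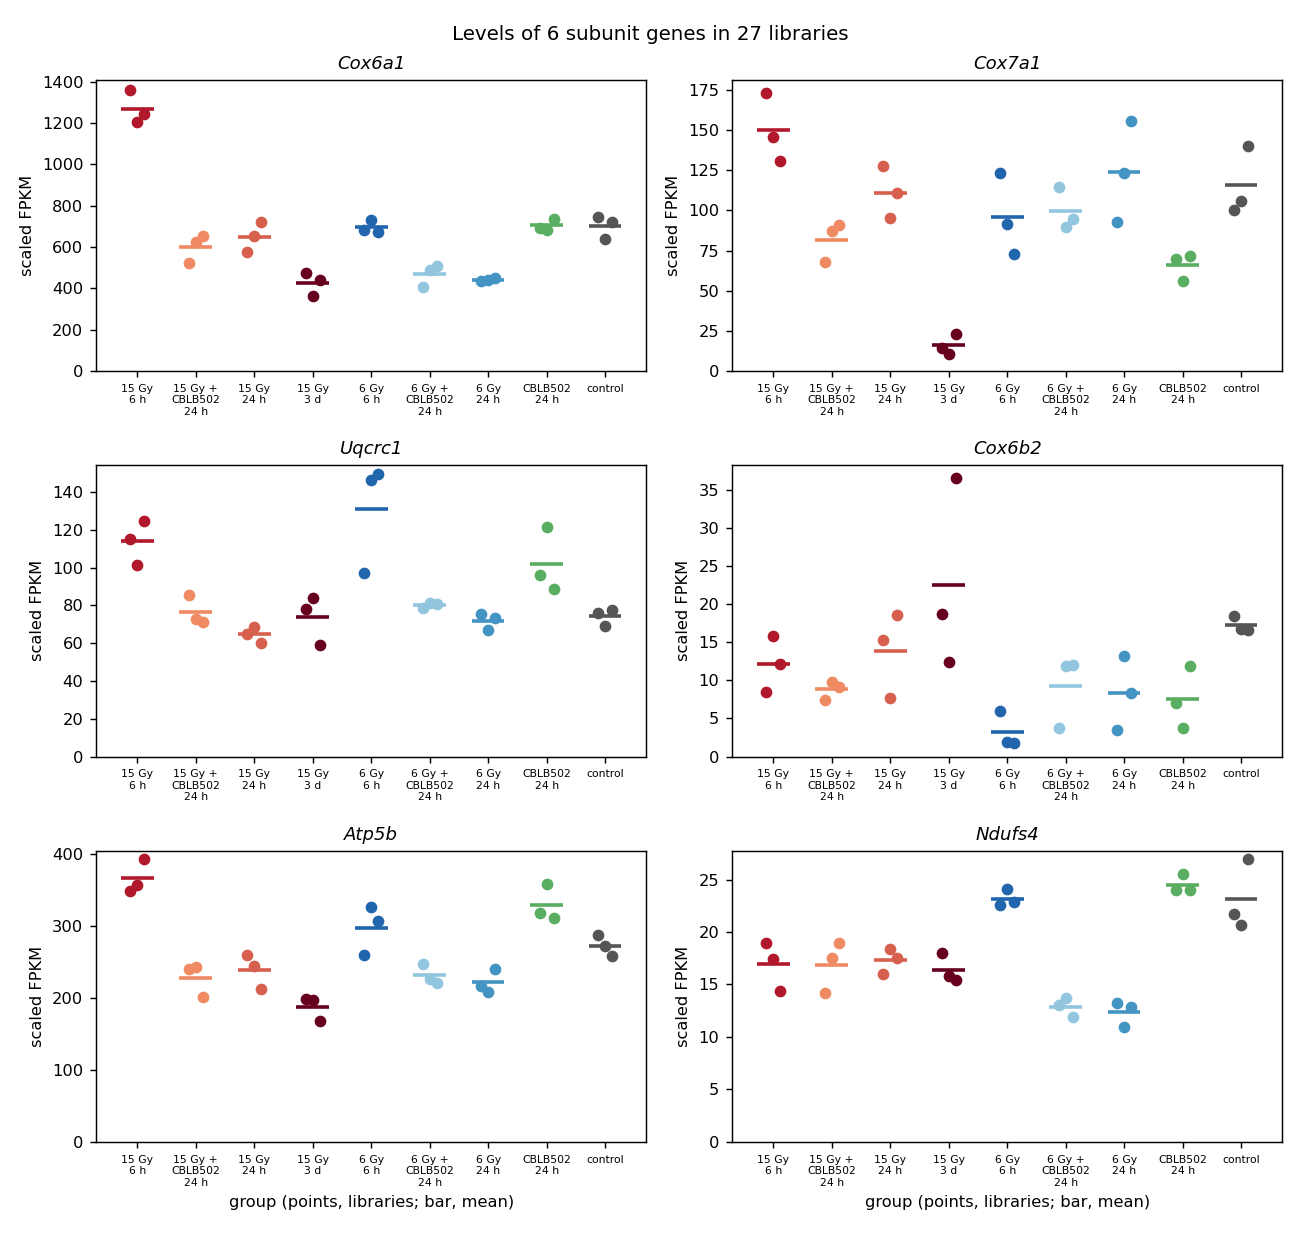
Scaled FPKM (linear y axes from 0) of Cox6a1, Cox7a1, Uqcrc1, Cox6b2, Atp5b and Ndufs4 in every library, with points for libraries and bars for group means. Cox7a1 is at 14.5, 10.6 and 23.4 in the libraries taken 3 d after 15 Gy, Cox6b2 is lowest 6 h after 6 Gy, and Cox6a1 is highest 6 h after 15 Gy.

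For 24 h after 6 Gy the direction of the members depended on the scaling. With TMM scaling 24 members were lower and 5 higher than in control, with a median of -0.21 against 0.07 over all genes, and 33% of all tested genes were called, 16.6% higher and 16.4% lower. With library totals alone 38 were higher and 0 lower, with a member median of 0.39 against 0.66 over all genes. Limma gave 35 higher and 0 lower, with medians of 0.38 and 0.45. Under all 3 settings the member median therefore lay below the median of all genes. Library totals and limma share one kind of scaling, since FPKM are given per 1 M mapped fragments. The count with TMM came to 16 when the 2 groups were fitted alone.

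The members at the ends of the range kept their sign under each of these settings. Ndufa3, a small accessory subunit of complex I, had 45.0, 44.6 and 45.3 scaled FPKM after 6 Gy, against 77.2, 76.4 and 81.7 in control (-0.78 ± 0.09, adjusted p = 7.64e-06). Cox6b1 had 265, 230.5 and 291, against 421, 437 and 511 (-0.78 ± 0.10, adjusted p = 2.98e-05). Ndufs4 had 13.3, 10.9 and 12.8, against 21.7, 20.7 and 26.95 (-0.88 ± 0.13, adjusted p = 6.9e-05). These 3 and Ndufa4 (-0.74 ± 0.22, adjusted p = 0.0146) were the largest falls, and all 4 had log2 fold changes below 0 but not called with library totals and with limma. Ndufa5, an accessory subunit of the arm that takes up NADH, had 55.9, 60.8 and 62.7 scaled FPKM after 6 Gy, against 25.3, 26.6 and 47.2 in control (0.88 ± 0.25, adjusted p = 0.0116). With Ndufc1 (0.61 ± 0.19, adjusted p = 0.0183), Atp5e (0.54 ± 0.14, adjusted p = 0.00601) and Ndufb1-ps (0.43 ± 0.15, adjusted p = 0.0329) it was among the largest rises, and these 4 were also called higher with library totals and limma.

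By complex, the TMM calls at 24 h after 6 Gy were 4 higher and 8 lower of 36 in complex I, 0 of 4 in complex II, 4 of 8 lower in complex III, 7 of 15 lower in complex IV and 1 higher and 5 lower of 17 in complex V. Cell type markers differed in the same libraries. All 16 exocrine pancreas genes and 4 of 6 tested smooth muscle genes were higher, and 9 of 12 enterocyte genes were lower, with a sum of 30636 to 37620.1 scaled FPKM against 64403 to 79063 in control. No enterocyte gene was without counts in these groups, and the part of these cell types in the member changes was not tested.

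CBLB502 without radiation gave 0 called members at 24 h by edgeR, where 5.74% of all tested genes were called, 2.48% higher and 3.26% lower. At an unadjusted p under 0.05 there were 21 members (26.2%), against 21.6% of all tested genes, and 68 of 80 had log2 fold changes above 0, with a median of 0.16 against 0.00 over all genes. All 3 treated libraries lay above all 3 control libraries for 21 members (26.2%), against 11% of all tested genes. Without control replicate 3, whose score is highest of the 3, 10 members were called, and DESeq2 called 5, median-ratio scaling 1 and the fit without mitochondrially encoded genes 2. Without replicate 1 or 3 of CBLB502 there were 1 and 2, and limma called 0.

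Cox7a1 came nearest to a call, in the downward direction. It had 70.0, 55.7 and 71.4 scaled FPKM with CBLB502, against 100.5, 106 and 140.3 in control. The groups did not overlap (-0.82 ± 0.24, adjusted p = 0.051), and its share of the 7A pair was 33.9, 26.95 and 31.3% with CBLB502, against 44.6, 46.8 and 48.4% in control. In these libraries the skeletal and heart muscle genes summed to 6.93 to 118 scaled FPKM, against 3.63 to 5.27 in control, and the part of muscle in this value was not tested. Ndufa10 (0.43 ± 0.13, adjusted p = 0.052), an accessory subunit of complex I, and Atp5h (0.41 ± 0.12, adjusted p = 0.0543), the d subunit of the ATP synthase stalk, were the nearest in the upward direction.

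CBLB502 given with radiation left no member called against radiation alone. After 15 Gy, 0 members and 0% of all tested genes were called between CBLB502 and no CBLB502 at 24 h, and at an unadjusted p under 0.05 there were 0 members against 7.8% of all genes. The member log2 fold changes had a median of -0.06 and ran from −0.64 to 0.29. That median was 0.03 with library totals and 0.02 with limma, so no direction can be given. After 6 Gy, 0 members and 0% of all tested genes were called, with 1 member and 2.73% of all genes at an unadjusted p under 0.05, a median of 0.05 and a range of −0.36 to 0.29. DESeq2 and limma called 0 members in both comparisons.

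All 3 libraries with CBLB502 lay below all 3 without it for 4 members after 15 Gy (Cox7a1, Ndufa6, Ndufv3 and Uqcrq), against 5.83% of all tested genes, and above for 1 (Uqcrc1), against 6.22%. The largest log2 fold changes after 15 Gy were in Cox6b2, at 8.82 ± 1.21 scaled FPKM with CBLB502 and 13.9 ± 5.63 without (-0.64 ± 0.54, adjusted p = 0.811), and Cox7a1, with 68.1, 86.9 and 90.6 with CBLB502 and 127, 95.3 and 111 without (-0.44 ± 0.24, adjusted p = 0.689). After 6 Gy 1 member, Atp5j2, had all 3 libraries with CBLB502 below (-0.36 ± 0.17, adjusted p = 1), against 4.96% of all tested genes, and 5 had them above, against 5.72%. Cox6a1 had 521, 626 and 654 scaled FPKM after 15 Gy with CBLB502, against 575, 656 and 719.9 after 15 Gy alone (-0.11 ± 0.12, adjusted p = 0.861). Atp5b had 239.7, 243 and 201, against 260.0, 244 and 213 (-0.06 ± 0.12, adjusted p = 0.935). Sdha had 91.3, 90.9 and 89.5, against 81.6, 92.2 and 78.2 (0.11 ± 0.14, adjusted p = 0.882). The groups overlapped for Cox6a1, Atp5b and Sdha. The smallest adjusted p of any member after 15 Gy was 0.639, for Uqcrq at -0.31 ± 0.15. After 6 Gy, Cox6a1 had 406, 489.9 and 509.7 scaled FPKM with CBLB502, against 434, 440.4 and 451 without (0.09 ± 0.12, adjusted p = 1).

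Whether the effect of CBLB502 differed with and without radiation was tested as an interaction. For 15 Gy 0 members were called, where 0.225% of all tested genes were, 0.153% with a positive and 0.072% with a negative term, and at an unadjusted p under 0.05 there were 8 members against 9.4% of all genes. For 6 Gy 0 members were called, where 0.324% were, 0.243% positive and 0.0809% negative, with 5 members against 11.4% of all genes at an unadjusted p under 0.05. The member medians were -0.22 for 15 Gy and -0.13 for 6 Gy, against -0.01 and 0.02 over all tested genes, and 75 and 58 of 80 members lay below 0. DESeq2 and limma also called 0 in both. The smallest adjusted p among members was 0.277 for 15 Gy, in Ndufv3, an accessory subunit of complex I (-0.40 ± 0.13). It was 0.307 for 6 Gy, in Atp5j2, the f subunit of ATP synthase (-0.64 ± 0.24).

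Genes around the respiratory chain did not all move as its subunits did. Of 17 genes of the citric acid cycle, which feeds electrons to complexes I and II, 5 rose and 3 fell 6 h after 15 Gy. At 3 d 0 rose and 10 fell, with a median of -0.50. Among all tested genes 12.2% were called higher and 16.8% lower at 6 h, and 13.9% and 15.6% at 3 d. Mdh2, mitochondrial malate dehydrogenase, averaged 570.1 ± 91.9 scaled FPKM at 6 h and 360.0 ± 10.5 in control (0.66 ± 0.16, adjusted p = 0.00344). Sucla2, a subunit of succinyl-CoA synthetase, was lower at 6 h (-1.05 ± 0.09, adjusted p = 1.06e-07) and at 3 d (-0.53 ± 0.09, adjusted p = 0.000147). Idh2, mitochondrial isocitrate dehydrogenase, fell at 3 d to 0.535 ± 0.127 scaled FPKM, against 3.58 ± 1.10 in control (-2.72 ± 0.30, adjusted p = 1.34e-06).

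Subunits and partners whose symbols lie outside the rule were Cyc1, Cycs, Atpif1 and Ndufab1, all tested, and 3 of these 4 fell at 3 d. Cyc1, cytochrome c1 of complex III, averaged 53.0 ± 2.68 scaled FPKM at 3 d and 105 ± 9.89 in control (-0.98 ± 0.10, adjusted p = 6.31e-07). Atpif1, the inhibitor protein of ATP synthase, averaged 49.7 ± 3.14 and 164 ± 42.4 (-1.72 ± 0.15, adjusted p = 4.6e-08). Cycs, somatic cytochrome c, did not pass the test (0.15 ± 0.15, adjusted p = 0.481).

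Of 51 tested assembly factors of the complexes, 9 rose and 2 fell 6 h after 15 Gy. At 3 d 6 rose and 6 fell, with a median of 0.05 beside -0.65 in the members. Over all tested genes 12.2% were called higher and 16.8% lower at 6 h, and 13.9% and 15.6% at 3 d. The 3 d counts of assembly factors did not exceed these shares. Sdhaf1, which helps insert the iron-sulfur clusters of Sdhb, averaged 1.76 ± 0.255 scaled FPKM at 3 d and 0.916 ± 0.252 in control (0.94 ± 0.22, adjusted p = 0.00327), while Sdhb fell. Sco1, a copper chaperone of complex IV, was also higher at 3 d (0.88 ± 0.13, adjusted p = 5.31e-05), and Fmc1, an assembly factor of ATP synthase, was lower (-1.01 ± 0.22, adjusted p = 0.00138).

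Mitochondrial ribosomal proteins, 78 tested, had 16 higher and 2 lower at 6 h after 15 Gy and 13 higher and 9 lower at 3 d, with a 3 d median of 0.17. Cytosolic ribosomal proteins, 80 tested, had 4 higher and 0 lower at 6 h, and 11 higher and 0 lower at 3 d, with a 3 d median of 0.43. Glycolytic genes, 16 tested, had 6 higher and 0 lower at 6 h with a median of 0.35, among them Pkm, the muscle-type pyruvate kinase (0.77 ± 0.16, adjusted p = 0.00138), and 2 higher and 2 lower at 3 d. The medians of these lists stand beside 0.02 over all tested genes at 6 h and at 3 d. Their counts stand beside 12.2% of all tested genes higher and 16.8% lower at 6 h, and 13.9% and 15.6% at 3 d.

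**Figure D4:**
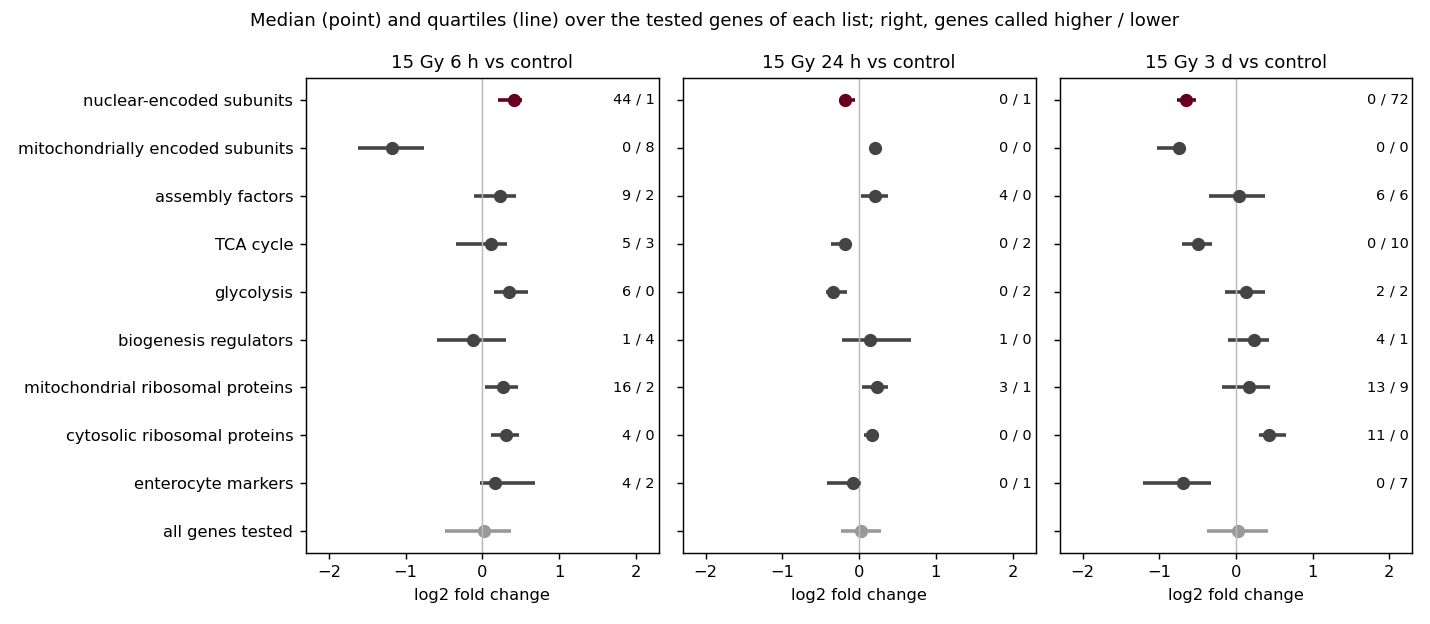
Log2 fold change against control (x axes) at 6 h, 24 h and 3 d after 15 Gy (panels) for the tested genes of each list (rows), with points for medians, lines for quartiles and, at the right, the numbers called higher and lower. The nuclear-encoded subunits have medians of 0.42, -0.19 and -0.65, the mitochondrially encoded subunits -1.18, 0.20 and -0.74, and the 3 panels share the control libraries.

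Transcriptional regulators of mitochondrial genes, 14 tested, showed 1 higher and 4 lower 6 h after 15 Gy and 4 higher and 1 lower at 3 d. The shares over all tested genes were 12.2% higher and 16.8% lower at 6 h, and 13.9% and 15.6% at 3 d. Gabpa, the DNA-binding subunit of GABP, averaged 2.04 ± 0.168 scaled FPKM at 6 h and 4.34 ± 0.656 in control (-1.09 ± 0.14, adjusted p = 5.16e-06), and it overlaps the member Atp5j. Yy1 (-0.55 ± 0.09, adjusted p = 0.00012) and Ppargc1a, the coactivator PGC-1 alpha (-0.92 ± 0.24, adjusted p = 0.00683), were also lower at 6 h, when the subunits were higher. At 3 d Esrra, the receptor ERR alpha, was lower (-0.76 ± 0.14, adjusted p = 0.000245), and Tfb2m, a factor of mitochondrial transcription (1.21 ± 0.18, adjusted p = 3.29e-05), and Ppargc1b (1.55 ± 0.36, adjusted p = 0.00263) were higher.

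Some counts of members carry an uncertainty from the annotation. Of the 80 tested members 18 overlap another tested gene, 15 of them on the opposite strand, and the strand setting of the counting is not given in the sources used here. Ndufb11 overlaps Rbm10, Ndufa3 overlaps Tfpt, Cox4i1 overlaps Emc8, Ndufs3 overlaps Kbtbd4, Ndufb1-ps overlaps Cpsf2, Uqcrb overlaps Gm10767 and Uqcrh overlaps Gm12854, all on opposite strands. Ndufb9 overlaps Gm49356 and Atp5b overlaps Gm50449 and Snord59a on the same strand. There were also 15 rows named as pseudogenes of members, 10 of them tested, and the member rows Cox5b-ps and Ndufb1-ps carry such names themselves.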

How the data were processed

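Intestinal RNA of 27 libraries in 9 groups of 3 was used, grouped by the sample labels. The whole-number counts per gene are the authors' and are used as deposited. The FPKM values were also deposited by the authors, with 0.0001 in place of 0. Per the submitters' processing notes, Bowtie 0.12.2, HISAT2 2.0, StringTie 1.3.0 and the mouse build mm8 were used, and which program made which value is not given in the sources used here. Gene positions of 74 of the 87 members are those of GENCODE vM21 on GRCm38.

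Counts were tested in R 4.3.3 with edgeR 4.0.16 (TMM scaling, quasi-likelihood F test over all 27 libraries, Benjamini-Hochberg adjustment over the 11118 genes that reached an FPKM of 1 in 3 or more libraries). The common dispersion was 0.0961, a biological coefficient of variation of 31%. SE is the log2 fold change divided by the square root of F. A gene is called at an adjusted p under 0.05. A member has protein_coding among its transcript types, and 25 have it as the only one. Ndufa4 and Ndufa4l2 are counted with complex IV. The 13 comparisons comprise 11 of 2 groups and 2 interactions. Alternatives were limma 3.58.1 on log2(FPKM + 1), DESeq2 1.42.0, median-ratio scaling, no filter, the replicate number as a block, other sets of libraries, and, chosen after seeing the data, library totals. The design had assumed limma if only FPKM were present. The scripts were tested on simulated data. Promoter sequences are RefSeq's.

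Members and gene lists were chosen with earlier results of these data known. Named are, per comparison, up to 4 largest called rises and falls, the most abundant member of each complex, complex II, isoform pairs and up to 3 genes of each list by adjusted p. Ndufb9, Uqcr10, Uqcrfs1, Ndufa10, Atp5h, Ndufv3, Atp5j2, the members not called at 3 d and the genes behind other examples were added after their values were seen.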

Additional observations from a re-analysis of the deposited data

How the results depend on the processing

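The largest called rises and falls of each comparison with calls kept their direction under all alternatives. Of their values 484 stayed called and 78 lost the call. Other named changes were not part of this check. The number of called members moved by more than 1.5 times as follows. With library totals it was 26 in place of 45 at 6 h after 15 Gy, 22 in place of 72 at 3 d, 11 in place of 36 for 15 Gy against 6 Gy, 15 in place of 56 for 3 d against 24 h and 0 in place of 1 at 24 h after 15 Gy. With limma these 5 counts were 26, 24, 13, 17 and 0. With the compared groups fitted alone the counts were 2 in place of 7 (6 h after 6 Gy), 9 (6 h after 15 Gy), 16 in place of 29 (24 h after 6 Gy), 44 (3 d), 23 (3 d against 24 h) and 0 (24 h after 15 Gy). With no filter they were 3 at 6 h after 6 Gy and 0 at 24 h after 15 Gy, with median-ratio scaling 2 at 24 h after 15 Gy and 1 with CBLB502 alone, and with DESeq2 5 in both. Without the 6 libraries of 24 h after 6 Gy the 24 h count after 15 Gy was 0, and without mitochondrially encoded genes the CBLB502 count was 2. The cause of these shifts was not tested. The median of 80 members stayed below that of all genes at 3 d under library totals and limma. These counts take both directions together. At 24 h after 6 Gy the count moved by no more than 1.5 times with library totals and limma. The calls there nevertheless turned from mostly lower to all higher.

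Leaving out each library gave 23 to 50 called members at 6 h after 15 Gy, 0 to 2 at 24 h after 15 Gy, 52 to 71 at 3 d, 3 to 18 at 6 h after 6 Gy, 21 to 26 at 24 h after 6 Gy, 22 to 30 for 15 Gy against 6 Gy, 43 to 56 for 24 h against 6 h, 39 to 55 for 3 d against 24 h, 0 to 10 for CBLB502 alone, and 0 in the 2 comparisons of CBLB502 with radiation and in the 2 interactions. The low counts at 6 h after 6 Gy came without control replicate 2 (3), control replicate 1 (4) and 6 Gy replicate 2 (4).

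Libraries of the same replicate number do not pair. Of 108 correlations between their deviations 21 exceeded 0.1, and in no comparison did all pairs. With the replicate block the counts were 6, 47, 28, 1, 71 and 0 for 6 Gy 6 h, 15 Gy 6 h, 6 Gy 24 h, 15 Gy 24 h, 15 Gy 3 d and CBLB502 against control, 34, 56 and 54 for 15 Gy against 6 Gy, 24 h against 6 h and 3 d against 24 h, and 0 in the other 4 comparisons.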
